A study of Mus musculus with 6 samples.

Results

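The interleukin 1 family and its receptors were followed through skin repair by 10 genes, taken by symbol from a table of 23940 genes: the ligand genes Il1a, Il1b, Il1f6, Il18 and Il33, the antagonist gene Il1rn, and the receptor genes Il1r1, Il1rap, Il1r2 and Il1rl1. RNA of full-thickness skin around dorsal incisional wounds of female C3H mice (C3Hf/Kam in the study's methods), 8 to 10 weeks old, was sequenced in 6 libraries. The arms were topical vemurafenib, a BRAF inhibitor given at 2 mg every other day, and vehicle, DMSO in PBS by the study's methods and no treatment by the sample labels. Each arm had 1 sample, used here as 1 library, on days 2, 6 and 14 after wounding, and the number of mice or sequencing runs behind it is not given in the sources used here. All 10 genes passed the filter on low values, 1 FPKM (sequenced fragments counted per kilobase of a gene's transcript and relative to all mapped fragments) or more as the mean of the 6 libraries, which left 13392 genes.

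Interleukin 1 alpha and beta signal through the same receptor, Il1r1, which needs the accessory chain Il1rap. Il1rn blocks that receptor and Il1r2 binds the ligand without signalling, so that the pathway carries its own brakes. In wounded skin, interleukin 1 alpha and interleukin 33 are known as alarm signals released by damaged keratinocytes and other barrier cells, whereas interleukin 1 beta is made mainly by neutrophils and macrophages and is cut to its active form by inflammasome proteases.

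Each library held 12746 to 13062 genes at 1 FPKM or more, and its depth is unknown, because FPKM do not give the number of reads. Values above 0 were written with over 6 significant digits, as averages would be, in 50.5% to 58.2% of cases in 4 of the 6 columns, against 0.269% in vemurafenib day 2 and 0.274% in vehicle day 14. The last 2 columns also had the most genes at 0, namely 6088 and 6000, against 5214 to 5446 in the others. The arm ratios of days 2 and 14 may therefore set an averaged column against a single one, and what this does to them was not tested. None of the 10 genes was at 0 in any library. The labelled tissue was checked by 10 lists of cell type markers, and no marker with a row was at 0 in all libraries. Rescaling the libraries to the same total FPKM moved the median log2 ratio of all genes between the arms to 0.18 on day 2, 0.40 on day 6 and -0.25 on day 14, against 0.00, 0.04 and -0.12 as deposited. With the 100 genes of highest mean FPKM left out of the total, the median was 0.12, 0.08 and -0.08. A single small RNA gene, Mir6236, held 13.9% of the total in vehicle day 6.

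The genes lie in 2 clusters on chromosome 2, in 1 cluster on chromosome 1 and alone elsewhere (mm9 build). Il1a (chr2:129125346-129135708, minus strand) and Il1b (chr2:129190306-129196875, minus strand) are neighbours. Il1f6 (chr2:24070938-24081222) and Il1rn (chr2:24192373-24207014) sit in another interleukin 1 cluster on the plus strand of that chromosome. Il1r2 (chr1:40141613-40182064), Il1r1 (chr1:40281925-40373043) and Il1rl1 (chr1:40486415-40522260) follow each other on the plus strand of chromosome 1. Il1rap (chr16:26581790-26730203), Il33 (chr19:29999604-30035194) and Il18 (chr9:50383378-50389942) have no other of the 10 genes beside them.

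The 250 bases before the start of Il1a and of Il1b are shown for these neighbouring genes. Both were lower on day 14 than on day 2 in both arms, to unlike extents, as their FPKM show further on. Whether the motifs have a part in this was not tested. The sequences are those of RefSeq on the GRCm38.p6 build, chr2:129309973-129310222 for Il1a and chr2:129371140-129371389 for Il1b, both on the minus strand and written 5′ to 3′ toward the start of the gene. Capitals mark matches to the motifs searched.
Il1a: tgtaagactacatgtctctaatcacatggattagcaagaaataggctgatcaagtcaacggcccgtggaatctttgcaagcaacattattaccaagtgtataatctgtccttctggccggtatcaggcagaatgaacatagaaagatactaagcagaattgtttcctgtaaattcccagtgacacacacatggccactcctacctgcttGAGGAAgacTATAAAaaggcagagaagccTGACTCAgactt
Il1b: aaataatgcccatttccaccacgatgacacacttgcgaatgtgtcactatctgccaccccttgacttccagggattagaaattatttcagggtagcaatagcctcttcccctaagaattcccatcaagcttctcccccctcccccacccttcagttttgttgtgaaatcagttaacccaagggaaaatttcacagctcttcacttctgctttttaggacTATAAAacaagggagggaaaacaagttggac
Both strands were searched for TGANTCA (the AP-1 consensus), TGACGTCA (the cyclic AMP response element), GAGGAA (the core bound by PU.1), the NF-kB consensus and, chosen after seeing the sequences, TATAAA (the TATA box). In Il1a the AP-1 match lies 12 to 6 bases before the start, the TATA box 32 to 27 and the PU.1 core 41 to 36. Il1b has the TATA box, 31 to 26 bases before the start, and no match to the other 4 motifs in this window. Of 32851 promoter windows of this length, 6.75% held the AP-1 consensus, 1.55% the cyclic AMP response element, 23.3% the PU.1 core, 3.9% the NF-kB consensus and 12.4% the TATA box. For 9 of the 10 genes there were 14 windows in all. Elsewhere among them the AP-1 consensus was in 1 of 3 windows of Il1rn and the NF-kB consensus in 1 of 2 of Il1r1. The letters TATAAA were in both windows of Il33, 203 to 198 bases before 1 start and 29 to 24 before the other. In the single window of Il18 they were on the opposite strand, 175 to 170 bases before the start. Whether these matches act as TATA boxes was not tested.

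Of the 10 genes, Il1b spanned the widest range over time. It was at 691, 69.7 and 0.618 FPKM in vemurafenib-treated wounds on days 2, 6 and 14, against 566, 28.6 and 1.60 FPKM in vehicle-treated wounds. The days did not overlap: both day 2 libraries were above both of day 6, and these were above both of day 14, a span of 1118-fold between the highest and the lowest library. In a limma model of all 6 libraries with arm and day as terms, in which the arms stand in for replicates of a day, Il1b fell by 3.81 ± 0.56 on the log2 scale (SE) between days 2 and 6 (adjusted p = 0.0171) and fell by 5.34 ± 0.56 between days 6 and 14 (adjusted p = 0.00577). Between the arms the order turned over time: the log2 ratio of vemurafenib to vehicle, taken after adding 0.1 FPKM, was 0.29 on day 2, 1.28 on day 6 and -1.24 on day 14. An antisense gene, Il1bos, overlaps Il1b; it was at 1.25, 0.305 and 0.198 FPKM with vemurafenib and 0.990, 0.293 and 0.495 FPKM with vehicle, and whether the counting used strand is not given in the sources used here. In whole tissue, for this and every other gene, fewer cells of a type and less RNA per cell cannot be told apart.

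The other classical ligand gene, Il1a, stayed far lower. Its values were 7.02, 2.13 and 0.881 FPKM with vemurafenib on days 2, 6 and 14, against 6.44, 2.62 and 3.21 FPKM with vehicle. The arms were close on days 2 and 6, and on day 14 only the vemurafenib library lay below its day 6 level. The log2 ratios were 0.12, -0.29 and -1.75, and the last of these was number 179 from the lowest of 13392 genes. Neither day contrast passed the test for Il1a, with an adjusted p of 0.184 for day 6 against day 2 and 0.689 for day 14 against day 6. Since both genes are measured per length, their levels can be set beside each other: Il1b exceeded Il1a by 98.5-fold, 32.7-fold and 0.702-fold with vemurafenib on days 2, 6 and 14, against 88.0-fold, 10.9-fold and 0.499-fold with vehicle. Il1b was thus the more abundant transcript on days 2 and 6 and the less abundant on day 14, in both arms.

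Il1f6, the older symbol of the gene of interleukin 36 alpha, an epidermal cytokine with a receptor of its own, peaked on day 6. It was at 3.72, 7.96 and 0.230 FPKM with vemurafenib over the 3 days, against 2.43, 30.6 and 2.58 FPKM with vehicle. The vehicle day 6 library stood above all others and the vemurafenib day 14 library below all others. The log2 ratio was 0.60 on day 2, -1.93 on day 6 (number 169 from the lowest of all genes) and -3.02 on day 14 (number 31 from the lowest). Il1f6 fell by 4.06 ± 0.79 on the log2 scale between days 6 and 14 over both arms (SE, adjusted p = 0.0479); with the filter set to a mean of 5 FPKM the adjusted p was 0.0556. Its log2 difference between days 6 and 2 was 2.34 ± 0.79 (adjusted p = 0.183).

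Il18, which encodes a ligand made as a precursor by keratinocytes, was at 42.4, 39.3 and 15.2 FPKM with vemurafenib over the 3 days, against 44.5, 67.5 and 31.4 FPKM with vehicle. The arms were close on day 2, and the vemurafenib library was the lower on days 6 and 14, with log2 ratios of -0.07, -0.78 and -1.04. Il33, the gene of the alarm signal that binds Il1rl1, was at 43.1, 30.2 and 6.46 FPKM with vemurafenib, against 52.6, 32.2 and 15.7 FPKM with vehicle. Each later day was lower than the one before it in both arms, and the arms stood apart by over 2-fold on day 14 alone, with log2 ratios of -0.29, -0.09 and -1.27. Neither gene passed the test between days 14 and 6: the log2 difference was -1.62 ± 0.36 for Il33 (SE, adjusted p = 0.0688) and -1.23 ± 0.33 for Il18 (adjusted p = 0.105).

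**Figure D1:**
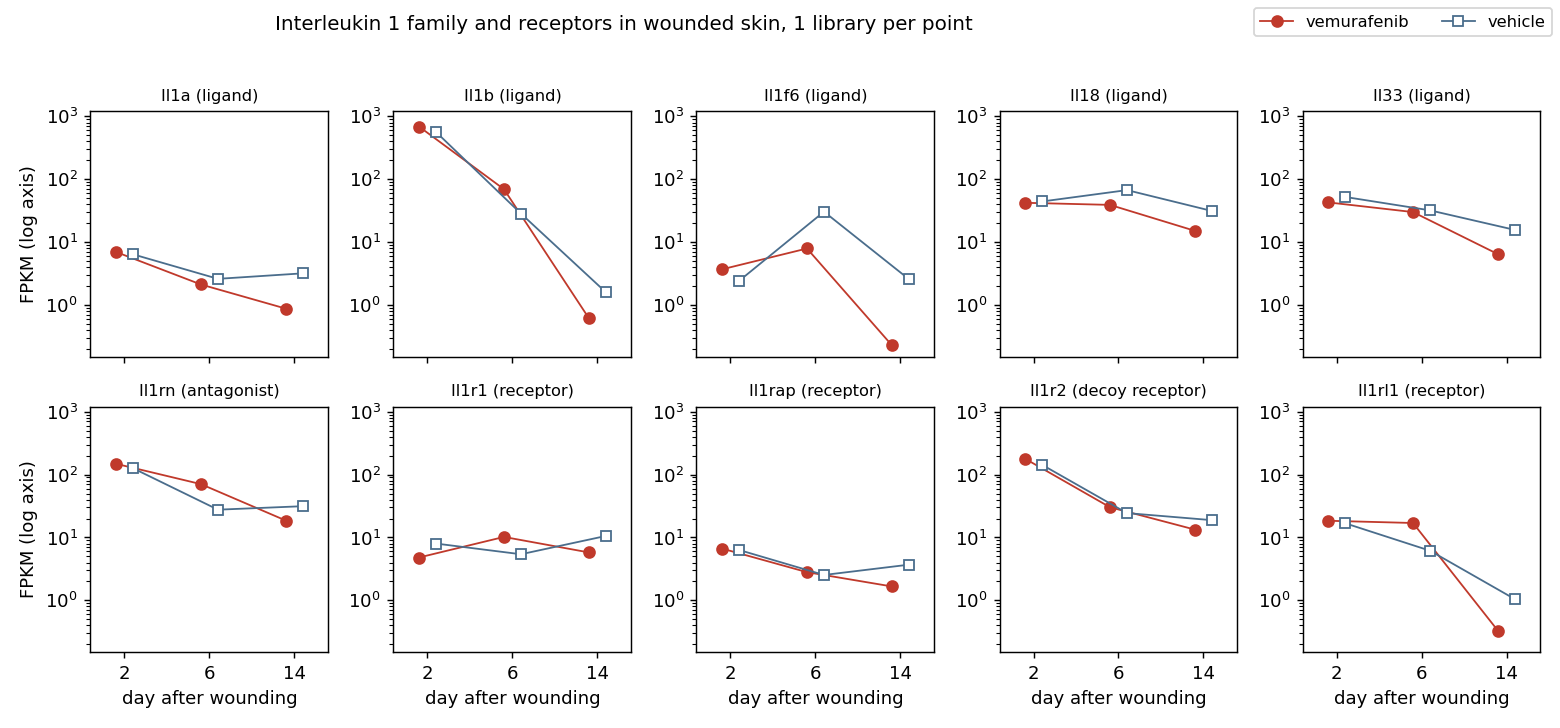
FPKM (log axis) of each of the 10 genes by day after wounding (days evenly spaced), with filled red circles for vemurafenib and open blue squares for vehicle, 1 library per point. Il1b spans 1118-fold and Il1r1 2.20-fold between their highest and lowest libraries, and on day 14 the vemurafenib point is the lower one in all 10 panels.

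Il1rn, the gene of the receptor antagonist, was at 148, 70.5 and 18.6 FPKM with vemurafenib on days 2, 6 and 14, against 126, 27.7 and 31.4 FPKM with vehicle. Day 2 was the highest in both arms, and on day 6 the vemurafenib library lay between those of days 2 and 14 while the vehicle library was close to its day 14 level. The log2 ratios were 0.23, 1.35 and -0.76, and that of day 6 was number 376 from the highest of 13392 genes. Antagonist and ligand RNA changed places over the days. The FPKM of Il1rn divided by that of Il1b was 0.215, 1.01 and 30.0 with vemurafenib, against 0.223, 0.969 and 19.7 with vehicle, so that on days 2 and 6 the arms had almost the same ratio although each gene differed between them on day 6.

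Among the receptor genes, the signalling receptor Il1r1 varied least of the 10 genes. It was at 4.81, 10.2 and 5.78 FPKM with vemurafenib on days 2, 6 and 14, against 8.01, 5.42 and 10.6 FPKM with vehicle. The arms ran in opposite directions, with the vemurafenib library the lower on days 2 and 14 and the higher on day 6, at log2 ratios of -0.72, 0.90 and -0.86, each under 2-fold. Il1rap, the accessory chain that Il1r1 and Il1rl1 share, was at 6.67, 2.81 and 1.67 FPKM with vemurafenib, against 6.34, 2.54 and 3.70 FPKM with vehicle. Both day 2 libraries were the highest, the arms were close on days 2 and 6, and on day 14 the vemurafenib library was the lower (log2 ratios 0.07, 0.14 and -1.11).

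The decoy receptor gene Il1r2 was at 179, 30.2 and 13.3 FPKM with vemurafenib on days 2, 6 and 14, against 143, 24.4 and 18.8 FPKM with vehicle. All of its arm ratios were under 2-fold (log2 0.32, 0.31 and -0.50), and the day 2 libraries stood well above the rest. Il1r2 fell by 2.55 ± 0.32 on the log2 scale between days 2 and 6 (SE, adjusted p = 0.0103), and its difference between days 14 and 6 was -0.77 ± 0.32 (adjusted p = 0.260). Decoy RNA exceeded that of the signalling receptor in every library: Il1r2 divided by Il1r1 was 37.2, 2.96 and 2.31 with vemurafenib, against 17.9, 4.51 and 1.78 with vehicle.

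Il1rl1, the gene of the interleukin 33 receptor, was at 18.5, 17.0 and 0.329 FPKM with vemurafenib on days 2, 6 and 14, against 16.9, 6.16 and 1.04 FPKM with vehicle. The arms were close on day 2, the vemurafenib library was near its day 2 level on day 6, and both day 14 libraries were below all others. Its log2 ratios were 0.13, 1.45 and -1.42, and that of day 6, number 302 from the highest of all genes, was above those of the other 9 genes. Il1rl1 fell by 3.88 ± 0.62 on the log2 scale between days 6 and 14 (SE, adjusted p = 0.0270). The FPKM of its ligand gene Il33 divided by that of Il1rl1 was 2.33, 1.78 and 19.7 with vemurafenib, against 3.12, 5.22 and 15.0 with vehicle.

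Set side by side, the 10 genes differed little between the arms on day 2, in both directions on day 6 and in 1 direction on day 14. On day 2, 0 of 10 were at least 2-fold higher with vemurafenib (1.43% of all genes) and 0 at least 2-fold lower (3.26%), and the median log2 ratio was 0.13 beside 0.00 over all genes; 7 were above 0, or 8 with FPKM rescaled to the same total, when Il18 was at 0.12. On day 6, Il1rl1, Il1rn and Il1b were at least 2-fold higher (3 of 10, beside 5.29% of all genes) and Il1f6 at least 2-fold lower (1 of 10, beside 5.03%), and the median was 0.23 beside 0.04. With the same total, Il1r1 also passed 2-fold on day 6, at 1.26, and Il1a and Il33 turned to 0.06 and 0.27. With the 100 genes of highest mean FPKM left out of that total, 3 genes were at least 2-fold higher and 1 lower, as deposited.

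On day 14, 7 of 10 genes were at least 2-fold lower with vemurafenib, beside 7.66% of all genes, and 0 were at least 2-fold higher, beside 3.64%. All 10 were below 0, as were 57.0% of all genes, and the median of the 10 was -1.17 beside -0.12. The 7 genes were Il1f6, Il1a, Il1rl1, Il33, Il1b, Il1rap and Il18. With a pseudocount of 1 FPKM in place of 0.1 only 4 passed 2-fold, and Il1b, Il1rap and Il1rl1, all below 4 FPKM on that day, came to -0.68, -0.82 and -0.62. With the ratios centred on the median of all genes 5 passed, without Il18 (-0.93) and Il1rap (-0.99). The vemurafenib day 14 library was the lowest of the 6 in 9 of 10 genes, the exception being Il1r1, and in 16.4% of all genes.

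**Figure D2:**
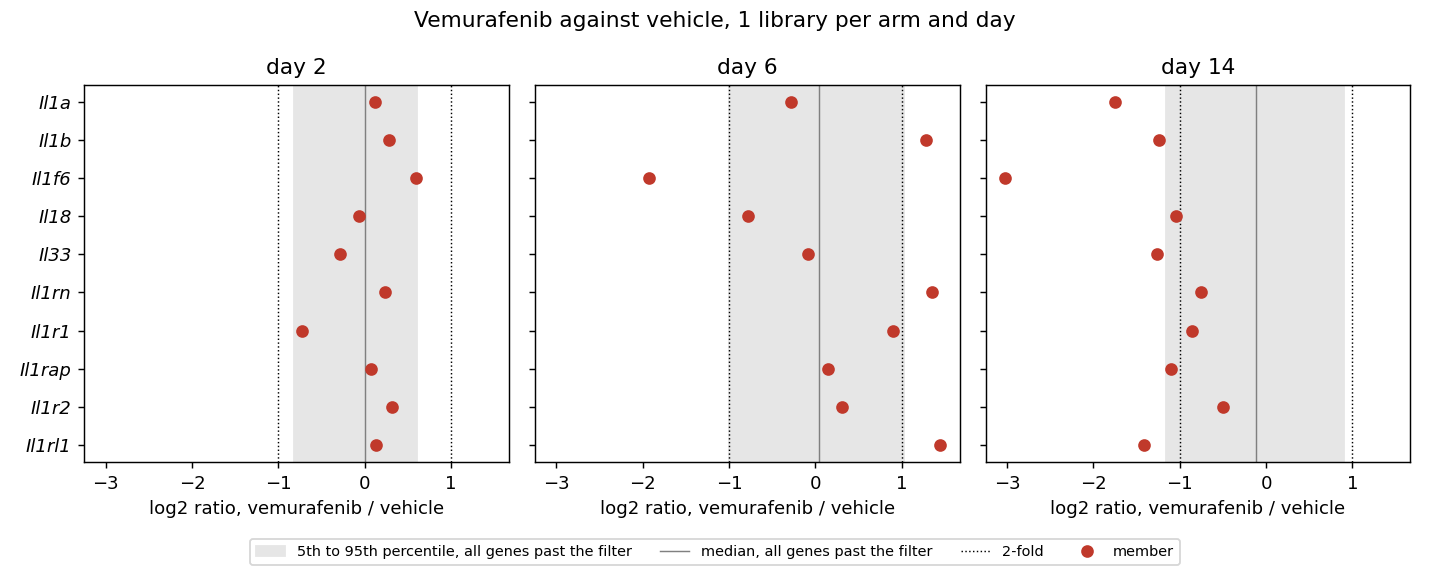
Log2 ratio of vemurafenib to vehicle after adding 0.1 FPKM (x axis) for each of the 10 genes on days 2, 6 and 14, with 1 library per arm and day. The grey band holds the 5th to 95th percentile of the 13392 genes, the grey line their median and the dotted lines 2-fold; the points lie inside 2-fold on day 2, 4 lie outside it on day 6 and 7 lie below it on day 14.

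A difference between the arms that holds over the 3 days was not detected for any of the 10 genes. With 1 library per arm and day no test was possible on a single day. In the limma model 0 of 10 genes were called for arm, all with an adjusted p of 1.0 and 0 with an unadjusted p under 0.05, beside 1 of all genes called (0.00747%) and 303 with an unadjusted p under 0.05. The values nearest to the threshold were those of Il18, -0.63 ± 0.27 (SE, unadjusted p = 0.0539), and Il1f6, -1.45 ± 0.64 (unadjusted p = 0.0608). With day 2 left out, the arm difference of Il1f6 was -2.48 ± 0.48 (SE, unadjusted p = 0.00074, adjusted p = 0.229) and that of Il18 was -0.91 ± 0.31 (unadjusted p = 0.0179, adjusted p = 0.605); without day 14 that of Il1f6 was -0.67 ± 0.79 (adjusted p = 0.999). The model estimates the mean difference over the days, and only Il18 and Il33 had log2 ratios of 1 sign on all 3 days as deposited.

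Differences between days were tested over both arms. Between days 2 and 6, Il1b and Il1r2 fell, 2 of 10 genes beside 1.81% of all genes, and 0 rose, beside 393 of the 13392 genes; 6 of 10 had an unadjusted p under 0.05, beside 2305 of all genes, and among the 6 only Il1f6 was higher on day 6. Between days 6 and 14, Il1b, Il1rl1 and Il1f6 fell, 3 of 10 beside 1.8% of all genes, and 0 rose, beside 247 of all genes, with 6 of 10 at an unadjusted p under 0.05, beside 2565 of all genes. Without the filter on low values, which brought 19955 genes into the model, only Il1r2 between days 2 and 6 was still called. Day 2 was the peak of 7 of the 10 genes, which had their highest library there, 6 of them with vemurafenib and Il33 with vehicle, beside 32.8% of all genes with the highest library on day 2.

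**Figure D3:**
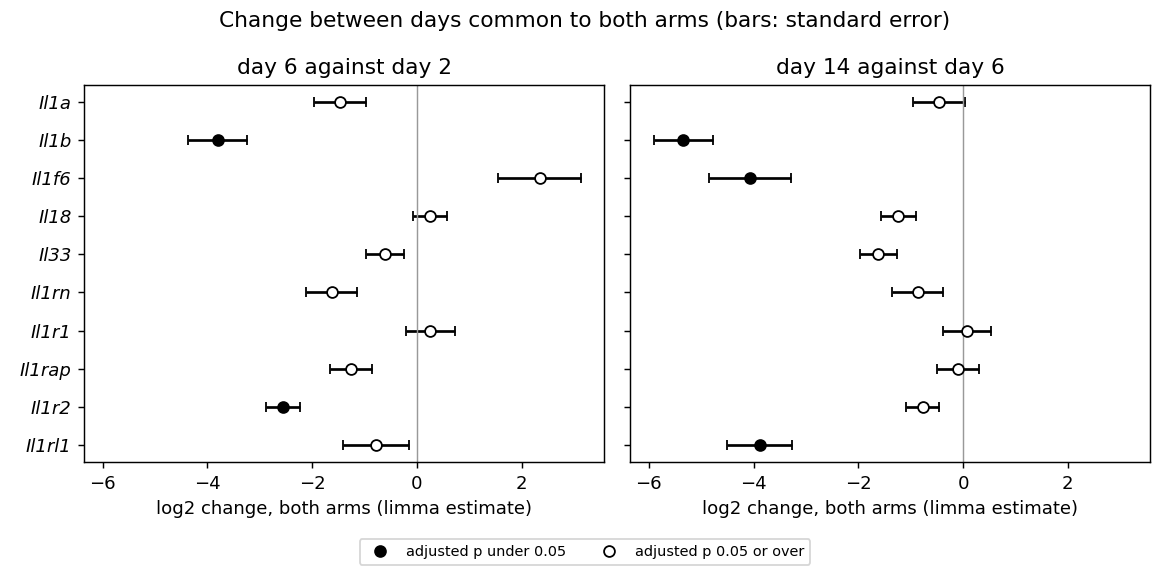
Log2 change between days over both arms (limma estimate, x axis, with bars for the standard error) for the 10 genes, day 6 against day 2 on the left and day 14 against day 6 on the right. Filled points have an adjusted p under 0.05: Il1b and Il1r2 on the left, and Il1b, Il1f6 and Il1rl1 on the right.

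Within each arm the same steps can be read as values. In vemurafenib-treated wounds, 2 of 10 genes were at least 2-fold higher on day 6 than on day 2 (9.43% of all genes) and 5 at least 2-fold lower (6.7%), and from day 6 to day 14 these counts were 0 (7.46%) and 8 (14.6%). In vehicle-treated wounds, 1 gene was at least 2-fold higher on day 6 than on day 2 (9.98%) and 6 at least 2-fold lower (11.8%), and from day 6 to day 14 they were 0 (12.6%) and 5 (10.1%). The median log2 difference of the 10 genes between days 14 and 6 was -1.64 with vemurafenib and -0.70 with vehicle, where Il1a, Il1rn, Il1r1 and Il1rap were higher on day 14 than on day 6, by 0.28, 0.18, 0.95 and 0.53. These comparisons share all 6 libraries with those between the arms.

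Markers of the cells that make or answer these signals differed between the same libraries. Summed FPKM of 7 neutrophil markers was 9685, 733.9 and 47.4 with vemurafenib on days 2, 6 and 14, against 7596, 949.6 and 95.8 with vehicle. S100a8 and S100a9 make up most of these sums and were lower with vemurafenib on day 6. On that day 4 of the 7 markers were higher, beside 54.5% of all genes (median log2 ratio of the 7, 0.59). Csf3r, Mmp8 and Fpr1 were higher by at least 2-fold, beside 5.29% of all genes. Of the 7 markers 6 fell between days 2 and 6 in the limma model, beside 1.81% of all genes. Between days 6 and 14, 4 fell, beside 1.8%. Summed FPKM of 8 macrophage and monocyte markers was 1262, 1001 and 283 with vemurafenib, against 1364, 506 and 208 with vehicle. On day 6, 8 of 8 were higher with vemurafenib, beside 54.5% of all genes (median log2 ratio 1.52). At least 2-fold higher were 5 of them, beside 5.29% of all genes.

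Epidermal markers were lower with vemurafenib on day 6. Also lower on that day were the 5 mast cell markers past the filter (median -0.19) and 3 of 4 T and NK cell markers (median -0.41), beside 45.0% of all genes. All 6 fibroblast, 4 endothelial and 4 skeletal muscle markers were higher, beside 54.5% of all genes. For 7 genes of differentiated keratinocytes the sum was 5539, 6559 and 1795 FPKM with vemurafenib on days 2, 6 and 14, against 4250, 18250 and 3203 FPKM with vehicle. All 7 were lower with vemurafenib on day 6 (median -1.42) and on day 14 (median -1.01), beside 45.0% and 57.0% of all genes. Over all genes the medians were 0.04 and -0.12. The 4 keratin genes of the wound edge were Krt6a, Krt6b, Krt16 and Krt17. All were at least 2-fold lower with vemurafenib on day 6 (median -1.75), beside 5.03% of all genes. On day 14, 2 were lower and 2 higher (median -0.22), beside 57.0% of all genes lower and 42.4% higher. The 5 basal keratinocyte markers were all lower on day 6 (median -1.04), beside 45.0% of all genes. On day 14, 3 of 5 were higher (median 0.35), beside 42.4% of all genes. Their sums were 13180, 4717 and 4255 FPKM with vemurafenib, against 12760, 11900 and 3160 FPKM with vehicle. The 6 fibroblast markers, too, were all lower on day 14 (median -0.80), beside 57.0% of all genes. The 4 skeletal muscle markers were all at least 2-fold higher on that day (median 1.83), beside 3.64% of all genes. The part of these cell types in the values of the 10 genes was not tested.

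The remaining ligand genes of the family, Il1f5, Il1f8, Il1f9 and Il1f10, are expressed mainly in epidermis. All 4 were higher with vemurafenib on day 2, beside 49.8% of all genes. They were all lower on days 6 and 14, beside 45.0% and 57.0% of all genes. Their medians were 0.43, -1.32 and -1.18. On day 2, 1 was at least 2-fold higher, beside 1.43% of all genes. On days 6 and 14, 3 were at least 2-fold lower each time, beside 5.03% and 7.66% of all genes. Il1f5, the antagonist of the interleukin 36 receptor, was at 17.4, 31.9 and 10.7 FPKM with vemurafenib, against 11.5, 88.6 and 26.9 FPKM with vehicle. Il1f8 and Il1f9, which encode interleukin 36 beta and gamma, had day 14 ratios of -3.07 and -0.92; Il1f8 was at 0.498 FPKM with vemurafenib and 4.92 FPKM with vehicle on that day. Il1f10 alone was highest on day 14, at 2.34, 0.644 and 13.4 FPKM with vemurafenib, against 0.999, 4.46 and 27.5 FPKM with vehicle. None of the 4 passed the limma test for arm or between days; an unadjusted p was under 0.05 for 0 of them for arm, 1 for day 6 against day 2 and 4 for day 14 against day 6.

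Of 7 further receptors and binding proteins, 4 passed the filter on low values, and Il18r1, Il1rapl1 and Il1rapl2 did not. Il1rl2, the interleukin 36 receptor, was at 3.95, 4.56 and 1.81 FPKM with vemurafenib, against 4.64, 3.78 and 10.1 FPKM with vehicle, so that the vehicle day 14 library was the highest and the vemurafenib day 14 library the lowest (log2 ratio -2.41). Il18bp, which binds and blocks interleukin 18, was at 38.7, 7.57 and 1.95 FPKM with vemurafenib, against 51.6, 3.48 and 1.41 FPKM with vehicle. It fell by 3.09 ± 0.39 on the log2 scale between days 2 and 6 (SE, adjusted p = 0.0108), while its arm ratios were -0.41, 1.10 and 0.44. Il18rap, a chain of the interleukin 18 receptor, had ratios of -0.11, 1.04 and -0.93, and Sigirr, an inhibitory receptor of the family, -0.63, 0.03 and 0.06.

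Inflammasome and processing genes were represented by 15 of 19 genes past the filter. On day 6, 2 of 15 were at least 2-fold higher with vemurafenib, beside 5.29% of all genes, and 0 at least 2-fold lower, beside 5.03%. The first was Casp4, an inflammatory caspase, at 8.40 against 2.88 FPKM. The other was Nlrp3, the sensor of the inflammasome that activates interleukin 1 beta, at 3.0 against 1.12 FPKM. On day 2, 3 of 15 were at least 2-fold lower, beside 3.26% of all genes. Among them were the mast cell proteases Cma1 (4.22 against 16.3 FPKM) and Mcpt4 (3.94 against 15.2 FPKM). The 5 mast cell markers past the filter, these proteases included, were all lower with vemurafenib on day 2, beside 49.0% of all genes. Their log2 ratios had a median of -1.92. On day 14 none of the 15 inflammasome and processing genes was 2-fold apart, beside 3.64% of all genes higher and 7.66% lower. The medians of that list were -0.04, 0.42 and -0.12. Nlrp3 fell by 3.63 ± 0.51 on the log2 scale between days 2 and 6 (SE, adjusted p = 0.0148) and fell by 2.77 ± 0.51 between days 6 and 14 (adjusted p = 0.0403), in the same intervals as Il1b. Between days 2 and 6, Cma1 and Mcpt4 rose, by 2.58 ± 0.45 (adjusted p = 0.0302) and 2.96 ± 0.41 (adjusted p = 0.0147). Gsdmd, whose product forms the pores through which the cytokine leaves the cell, fell by 1.91 ± 0.37 between days 6 and 14 (adjusted p = 0.0478). Casp1 itself, the caspase that cuts both interleukin 1 beta and interleukin 18, was at 13.9, 14.4 and 12.9 FPKM with vemurafenib, against 13.7, 9.85 and 17.9 FPKM with vehicle.

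Few of the signalling genes below the receptors were 2-fold apart, as was the case for all genes. On day 2, 1 of 20 was at least 2-fold higher, beside 1.43% of all genes. It was the p38 kinase activator Map2k6, at 3.70 FPKM with vemurafenib and 1.65 FPKM with vehicle. On day 6, 0 were 2-fold apart, beside 5.29% of all genes higher and 5.03% lower. On day 14, 1 was at least 2-fold lower, beside 7.66% of all genes. This was Tab3, a partner of the kinase Map3k7, at 1.79 FPKM with vemurafenib and 3.95 FPKM with vehicle. Medians of the list were 0.06, 0.10 and -0.47. On day 14, 18 of 20 were below 0, beside 57.0% of all genes. None passed the limma test; an unadjusted p was under 0.05 for 0 of 20 for arm, 2 for day 6 against day 2 and 3 for day 14 against day 6. Myd88, the adaptor of these receptors, was at 63.8, 39.4 and 18.7 FPKM with vemurafenib, against 90.5, 33.8 and 21.4 FPKM with vehicle.

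Genes known to respond to interleukin 1 differed between the arms mainly on day 6, when several other lists differed as well. Of 20 past the filter, 11 were at least 2-fold higher with vemurafenib on day 6, beside 5.29% of all genes. At least 2-fold lower were 0, beside 5.03%, and the median was 1.16. On day 2, 1 was higher (1.43% of all genes) and 3 lower (3.26%), with a median of -0.01. On day 14 these counts were 1 (3.64%) and 2 (7.66%), with a median of -0.30. Cxcl1 and Cxcl5, chemokines for neutrophils, were at 61.2 and 10.9 FPKM with vemurafenib on day 6, against 2.53 and 0.614 FPKM with vehicle. Saa3, an acute-phase gene, had the highest log2 ratio of the list on day 14, 1.43, at 19.0 FPKM with vemurafenib and 6.99 FPKM with vehicle, and the lowest on day 2, -2.77, at 471 FPKM with vemurafenib and 3211 FPKM with vehicle. In the limma model 6 of 20 fell between days 2 and 6 (Csf3, Cxcl2, Lcn2, Mmp13, Nfkbiz and Ptgs2), beside 1.81% of all genes. Between days 6 and 14, 4 fell (Csf3, Cxcl2, Mmp13 and Ptges), beside 1.8%. Many of these genes also respond to other signals, which were not separated here.

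**Figure D4:**
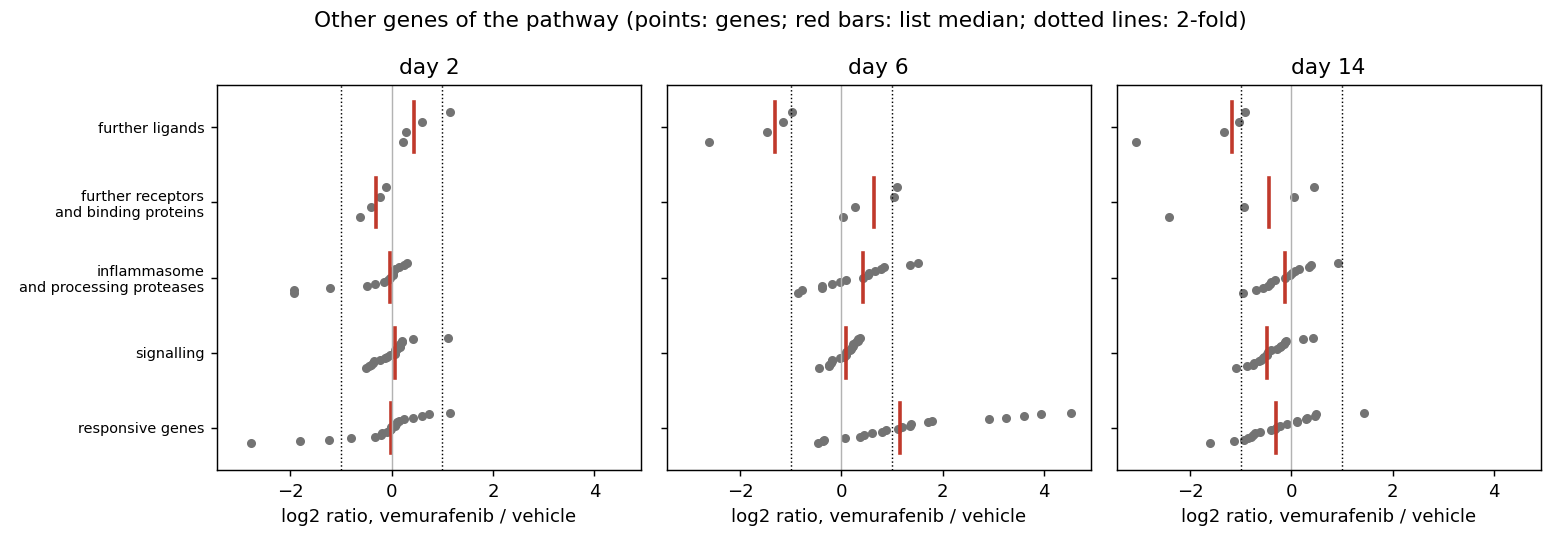
Log2 ratio of vemurafenib to vehicle (x axis) of the other genes of the pathway past the filter, in 5 lists, on days 2, 6 and 14; points are genes, red bars list medians and dotted lines 2-fold. The further ligands have medians of 0.43, -1.32 and -1.18, and the responsive genes of -0.01, 1.16 and -0.30.

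Genes with the course most like that of Il1b, Il1a, Il33 and Il1rl1 were ranked by Pearson's r of log2(FPKM + 0.1) over the 6 libraries, over the genes whose mean FPKM was 5 or more. For Il1b they were Cxcl2, a neutrophil chemokine (r = 0.9985), 1600010M07Rik (0.9971) and Apol9a (0.9956), and 370 genes had r above 0.95. Cxcl2 was at 693, 47.4 and 0.0944 FPKM with vemurafenib, against 644, 13.7 and 0.217 FPKM with vehicle. For Il1a they were Itga6, the gene of the alpha 6 integrin chain (0.9987), Cept1 (0.9897) and Klf10 (0.9826), with 19 genes above 0.95. Itga6 was at 24.2, 13.1 and 8.51 FPKM with vemurafenib, against 23.7, 14.2 and 16.7 FPKM with vehicle, the same order of libraries as Il1a. It is 1 of the 5 basal keratinocyte markers, of which 3 were higher with vemurafenib on day 14, when Itga6 was lower (log2 ratio -0.97).

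For Il33 the 3 genes were Chrnd (0.9882), Fam43a (0.985) and Slco2a1 (0.9848), with 37 genes above 0.95, and for Il1rl1 they included Bhlhe40 (0.9957) and H2-M5 (0.9944), with 129 above 0.95. Bhlhe40, a transcription factor gene, was at 53.5, 50.9 and 16.2 FPKM with vemurafenib, against 54.4, 34.4 and 20.9 FPKM with vehicle. With 6 libraries that share the same 3 days, many genes reach a high r, and these values describe the libraries only.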

How the data were processed

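RNA of wounded mouse skin was sequenced in 6 libraries. The authors mapped reads with TopHat (mm9) and made FPKM with cuffquant and cuffnorm, correcting for fragment bias and multiply mapped reads; the submitters' processing notes also name TopHat2, Cuffnorm and Cuffdiff. The deposited values are FPKM per gene, with no counts and unknown depth. All 6 columns were used, and 27 rows with date-like symbols were left out of 23940.

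Samples were grouped by label, with 1 library per arm and day. Log2 ratios were taken after adding 0.1 FPKM, with a 2-fold threshold, over the 13392 genes whose mean was 1 FPKM or more. Effects of arm and of day were fitted on log2(FPKM + 0.1) with limma 3.58.1 in R 4.3.3. The terms were additive, with a mean-variance trend and 2 residual degrees of freedom. Benjamini-Hochberg adjustment was over all genes, with a threshold of 0.05. The fit was also run on simulated data with independent noise. That run held no arm differences that change between days, so it cannot show how well the p-values hold here. Since the arms and days stand in for replicates, these p-values measure only the spread between the 6 libraries. Alternatives were pseudocounts of 1 and 0.01 FPKM, no filter or a minimum mean of 5 FPKM, 4 other scalings and leaving out a day.

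The 10 genes, the 15 gene lists and the rules were chosen with earlier results of these data known. Named genes were the 10, every other ligand, receptor and binding protein, the 2 highest and 2 lowest of each other pathway list on each day, of which some are printed, and the 3 genes most like Il1a, Il1b, Il33 and Il1rl1 (1 of them is not reported here). Casp1, Myd88, Ptges and the other list genes outside that rule were named after their values were seen. Of the listed symbols, 6 had no row (Il36rn, Il36b, Il36g and Il37, of which the first 3 are newer symbols of genes in the table, and Flg and Ly6g). Coordinates come from GENCODE on NCBIM37 (mm9) and promoters from RefSeq on GRCm38.p6. Python 3.11.15, numpy 2.4.6, pandas 2.3.3 and matplotlib 3.10.9 were used.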

Additional observations from a re-analysis of the deposited data

Results flagged for a closer look

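Il1b and Il1rl1 passed 2-fold in opposite directions on 2 days. As a log2 ratio, vemurafenib against vehicle was at 1.28 on day 6 and -1.24 on day 14 for Il1b, and 1.45 on day 6 and -1.42 on day 14 for Il1rl1. Each value rests on 1 library per arm, and the difference between the days was not tested. The day 14 levels were low, at 0.618 FPKM with vemurafenib and 1.60 with vehicle for Il1b, and 0.329 and 1.04 for Il1rl1. With a pseudocount of 1 FPKM neither gene passed 2-fold on that day. No group had enough samples to look for a library far from the others.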

How the results depend on the processing

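With FPKM values, 1 library per arm and day and no read numbers, the arm ratios have no error. The labels carry no replicate numbers, and the limma model pairs the arms by day through its day term. The arm ratio of each gene on each day was counted again under each of the other settings. Of these repeated values, 174 stayed on their side of 2-fold, 5 no longer passed it and 1 newly passed it. The count of genes at least 2-fold lower with vemurafenib on day 14 was 4 with a pseudocount of 1 FPKM, against 7. With that pseudocount 0 genes, against 2, were at least 2-fold higher on day 6 than on day 2 with vemurafenib. With all libraries scaled to 1 total, 3 genes, against 5, were at least 2-fold lower on day 6 than on day 2 with vemurafenib, and with vehicle 1 was higher and 3 were lower on day 14 than on day 6, against 0 and 5. The share of all genes at least 2-fold apart that were higher with vemurafenib was 52.0%, 79.3% and 18.8% on days 2, 6 and 14 with that scaling, against 30.4%, 51.2% and 32.2% as deposited, and 48.5% on day 14 once centred. With the 100 genes of highest mean FPKM left out of the total, the share was 44.4%, 53.7% and 36.6%.

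In the limma model with no filter on low values, which tests 19955 genes, 176 genes and 1 of the 10 were called between days 2 and 6, against 636 and 2, and 166 and 0 between days 6 and 14, against 488 and 3. Adjusted p was then 0.0775 and 0.0505 for Il1b in the earlier and later interval, 0.149 for Il1f6 and 0.110 for Il1rl1. With a mean of at least 5 FPKM, which leaves out Il1a and Il1rap, it was 0.0556 for Il1f6. For arm, 0 genes were called with either of these filters and 0 to 13 when a day was left out (13 without day 2, 11 without day 6 and 0 without day 14), against 1, and none of the 10 was among them, although 2 of the 10 (Il1f6 and Il18) had an unadjusted p under 0.05 without day 2. The cause of these shifts was not tested.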

Other observations

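Blocker and ligand RNA of other pairs in the family can be set side by side as ratios of FPKM. Il18bp divided by Il18 was 0.912, 0.193 and 0.128 with vemurafenib on days 2, 6 and 14, against 1.16, 0.0516 and 0.0448 with vehicle. Il1f5 divided by Il1f6 was 4.68, 4.0 and 46.5 with vemurafenib, against 4.74, 2.89 and 10.4 with vehicle. The ratio with vemurafenib was the higher one on days 6 and 14 for both pairs, and these ratios were not tested. On those days Il1f5 and Il1f6 were each lower with vemurafenib than with vehicle. On day 14 Il1f6 was at only 0.230 FPKM with vemurafenib.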
